A study of Mus musculus with 8 samples.

Results

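The cells described here are 606 lymphatic endothelial cells that carried transcripts of Foxp2 or Ackr4, out of 23996 cells from mouse mesentery and epididymal fat that passed the quality limits. They were picked as collecting lymphatic endothelium by a rule on detected transcripts. A cell needed at least 500 unique molecular identifiers (UMIs, each standing for 1 captured RNA molecule), at least 300 genes and at most 10% mitochondrial UMIs. It needed a UMI of at least 2 of the 6 genes Foxp2, Ackr4, Klrb1f, Nsg1, Pkhd1l1 and Clca3a1, with Foxp2 or Ackr4 among them, and a UMI of at least 1 of Prox1, Mmrn1 and Flt4. It could have none of Ptprc, the pan-leukocyte gene, or Gja5, a gap junction gene of arterial endothelium. These 11 genes chose the cells, so their levels are given as a description, with no test. Lists and counts of called genes that hold any of them say so.

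The study profiled single cells sorted for a yellow fluorescent protein (YFP) from mice fed ordinary or fat-rich food. All mice were male and carried ROSA26-eYFP+/+ and Cdh5-CreERT2+, in which tamoxifen turns on YFP in cells that use the endothelial Cdh5 promoter. Every group, controls included, ate a tamoxifen diet for 2 weeks from 6 weeks of age and then, from 8 weeks, either chow with 5.8% fat or a high fat diet with 60% fat. They stayed on it for 12 to 13 weeks. The 4 groups were mesentery on chow, mesentery on high fat, epididymal fat pads on chow and epididymal fat pads on high fat, each with 2 libraries, called run A and run B after the letters in their titles, which mark a repeat of the experiment. Each library pooled the tissue of 6 mice and aimed at 5000 cells, so p-values below measure the spread between pools. The tissue was dissected and digested with actinomycin D, which blocks new transcription.

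Lymphatic vessels begin as blind-ended capillaries, which take up fluid, fat and cells, and drain into collecting vessels, which have valves and a muscle coat and pump lymph towards lymph nodes. Capillary endothelium is known for Lyve1, Reln and the chemokine Ccl21a, which guides dendritic cells into the vessel. Collecting endothelium is known for lower levels of these genes and for Foxp2, a transcription factor linked to lymph flow. Ackr4, a decoy receptor that removes CCL19 and CCL21, is known from collecting vessels and from the sinus lining of lymph nodes, and mesentery holds lymph nodes.

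The cells numbered 54 and 259 in chow mesentery (run A and run B), 59 and 52 in high fat mesentery, 21 and 62 in chow adipose tissue and 28 and 71 in high fat adipose tissue. Their summed UMIs ran from 33606 in chow adipose A to 1811918 in chow mesentery B, and the richest cell held 1.6 to 11.6% of a library's sum. The median was 5002.5 UMIs per cell over all libraries, 1508 to 4068 per library in run A and 5142 to 7093.5 in run B. Cells over the mitochondrial limit made up 22.8 to 30.8% of barcodes in run A and 5.4 to 8.8% in run B. A list of 16 immediate early and stress genes summed to 11830 to 16110 CPM (counts per 1000000 UMIs of these cells in a library) in run A and 1186 to 1425 in run B. Of the 28 pairs of libraries, each shared 0 to 9 passing barcodes, and no pair shared a barcode between its Foxp2/Ackr4 cells. The macrophage list summed to at most 45.5 CPM, the T cell list to at most 2.51 with Cd3d and Cd3e at 0 in all libraries, and the B cell list to at most 18.2. Fibroblast genes reached 1593 CPM in high fat adipose A, adipocyte genes 693 in chow adipose B and haemoglobin genes 698 in high fat mesentery B.

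Foxp2 was found in 86.6% of the 606 cells, Clca3a1 in 75.1%, Nsg1 in 60.2%, Pkhd1l1 in 45.4%, Ackr4 in 32.8% and Klrb1f, a lectin-like receptor gene, in 20%. Prox1, the transcription factor that fixes lymphatic identity, was found in 81.8%, as was Mmrn1, and Flt4, the VEGF-C receptor, in 73.3%. In blood endothelial cells of the same libraries, which should lack Foxp2 and Ackr4, each was found in 0.4% at a median of 4110 UMIs. Exactly 2 of the 6 genes were present in 212 cells, and 24 cells had all 6. Another 112 cells had Foxp2 or Ackr4 and none of the other 5, and fell just outside. Among the 212 cells just inside, 80.2% had Prox1 and 72.2% Mmrn1 at a median of 5066.5 UMIs, against 63.4% and 53.6% at a median of 4109 UMIs just outside. Ptprc and Gja5 removed 3 and 2 further cells.

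The label held only in part, because the cells that met the rule were mixed. One kind had Foxp2 and no Ackr4 (407 cells), and many of these had capillary genes. The other had Ackr4, alone of the pair (81 cells) or with Foxp2 (118 cells), and mostly lacked Ccl21a. Genes known from lymph nodes were found in some cells of both kinds (102 of the 407 and 54 of the 199), nearly all of them mesenteric. The text therefore calls them all Foxp2/Ackr4 lymphatic cells.

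Ackr4 cells and the others differed in several genes that took no part in the choice, and these are given as a description because the split was made after the values were seen. Ccl21a was found in 5.0% of the 199 Ackr4 cells and in 60.7% of the 407 others. Ccl21a is 1 of several near-identical Ccl21 copies, so its counts may include reads of another copy. Reln was found in 25.6 against 60.0%, Lyve1 in 24.6 against 58.7%, and Vwf, the von Willebrand factor gene of endothelium exposed to flow, in 33.7 against 6.4%. These shares pool libraries and tissues, and chow mesentery B gave 152 of the 199 Ackr4 cells. Within it, the 152 Ackr4 cells and 107 others had Ccl21a in 5 and 31, Reln in 40 and 42, Lyve1 in 42 and 84, and Vwf in 51 and 8 cells. Their median UMIs there were 5027.5 and 7390. In the 4 mesenteric libraries (chow A, chow B, high fat A, high fat B) the Ackr4 cells held 12.5, 7.67, 39.8 and 0 CPM of Ccl21a, and the others 4316, 4552, 8639 and 15540. Vwf stood at 212, 221, 199 and 314 CPM in Ackr4 cells and at 42.2, 18.9, 48.5 and 12.6 in the others. Bmp4, a BMP ligand, stood at 87.5, 154, 79.7 and 621 CPM against 14.1, 15.6, 20.2 and 69.3. Vwf and Bmp4 were thus higher in the Ackr4 cells of each mesenteric library, but the share of all genes that were so is not given. In high fat mesentery A the Ackr4 cells numbered 4 and held 25100 UMIs, so their values rest on few UMIs.

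Ackr4 cells were mostly mesenteric. They made up 35.2 and 58.7% of the chosen cells in chow mesentery, 6.8 and 32.7% in high fat mesentery, 4.8 and 8.1% in chow adipose tissue and 3.6 and 0.0% in high fat adipose tissue. All 4 mesenteric libraries but high fat mesentery A lay above the adipose ones. Because Ackr4 is in the rule, no test was made.

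**Figure D1:**
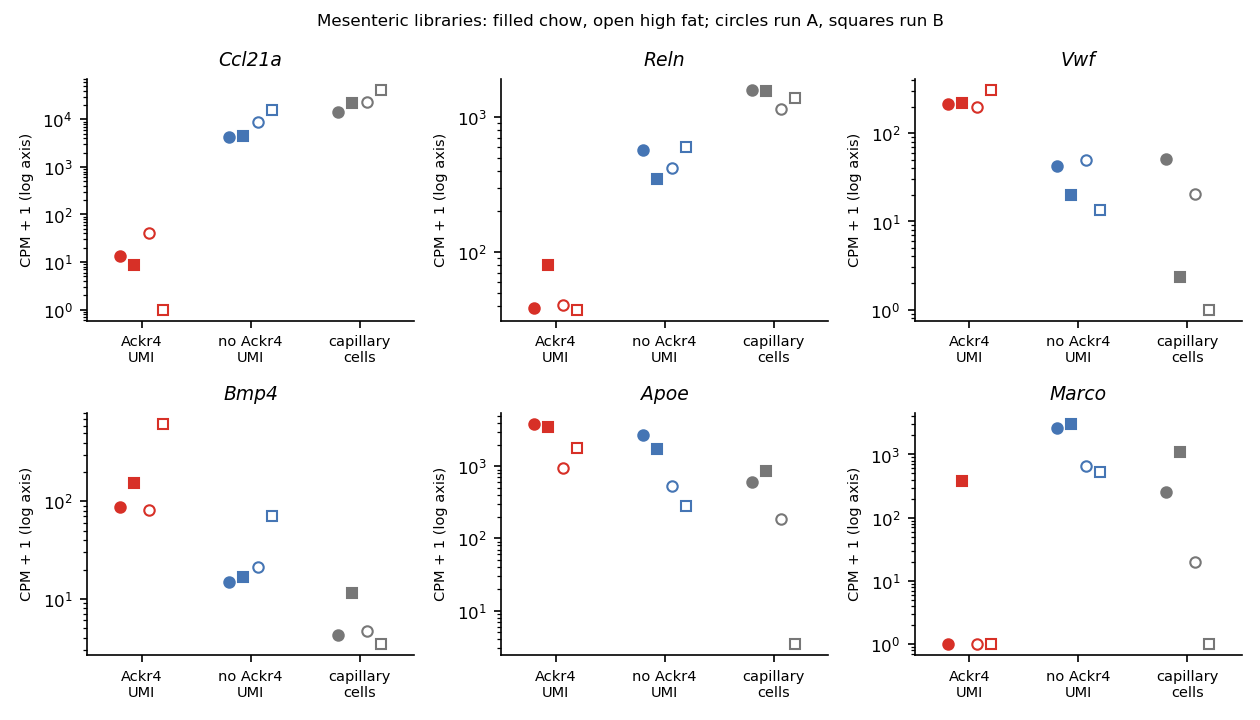
Level of 6 genes (CPM + 1, log axis) in mesenteric Foxp2/Ackr4 lymphatic cells with an Ackr4 UMI, in those without one, and in lymphatic capillary cells, 1 point per library. Ccl21a was at 0 to 39.8 CPM in the first class and at 4316 CPM or more in the second, while Vwf and Bmp4 were higher in the first.

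The list of genes of lymph node lymphatic or vascular endothelium held Marco and Msr1, scavenger receptor genes, Clec4g, Coch, Ccl20, and Glycam1 and Madcam1, which encode ligands that draw lymphocytes from blood. It was drawn up after these values had been seen, so it was not tested as a set. Adjusted p-values of its genes below come from fits over all genes. The fits that leave out cells with such a gene were added afterwards and serve as a description. A UMI of any of the 7 was found in 156 of the 606 cells, namely 16 and 118 in chow mesentery, 14 and 4 in high fat mesentery, 0 and 2 in chow adipose tissue and 0 and 2 in high fat adipose tissue. With each cell thinned to 1000 UMIs the shares were 25, 32.2, 16.9 and 3.8% in mesentery and at most 1.4% in adipose tissue. Marco was found in 7 and 54 cells of chow mesentery, in 2 and 1 of high fat mesentery and in 0 of adipose tissue. Blood endothelial cells of the mesenteric libraries held less Marco (99.4, 57.5, 3.69 and 0.0736 CPM) than the chosen cells (1687, 1696, 595 and 372), but more Glycam1 in the first 3 of these libraries (1163, 2470 and 6856 against 229, 385 and 1781 CPM). Ccl21a was at 0, 70.9, 1888 and 0 CPM in the mesenteric cells with such a gene and at 4261, 5768, 10540 and 12550 in those without. Cells with such a gene held 1114448 of the 1811918 UMIs of chow mesentery B. Whether lymph nodes were dissected with the mesentery is not stated by the labels.

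**Figure D2:**
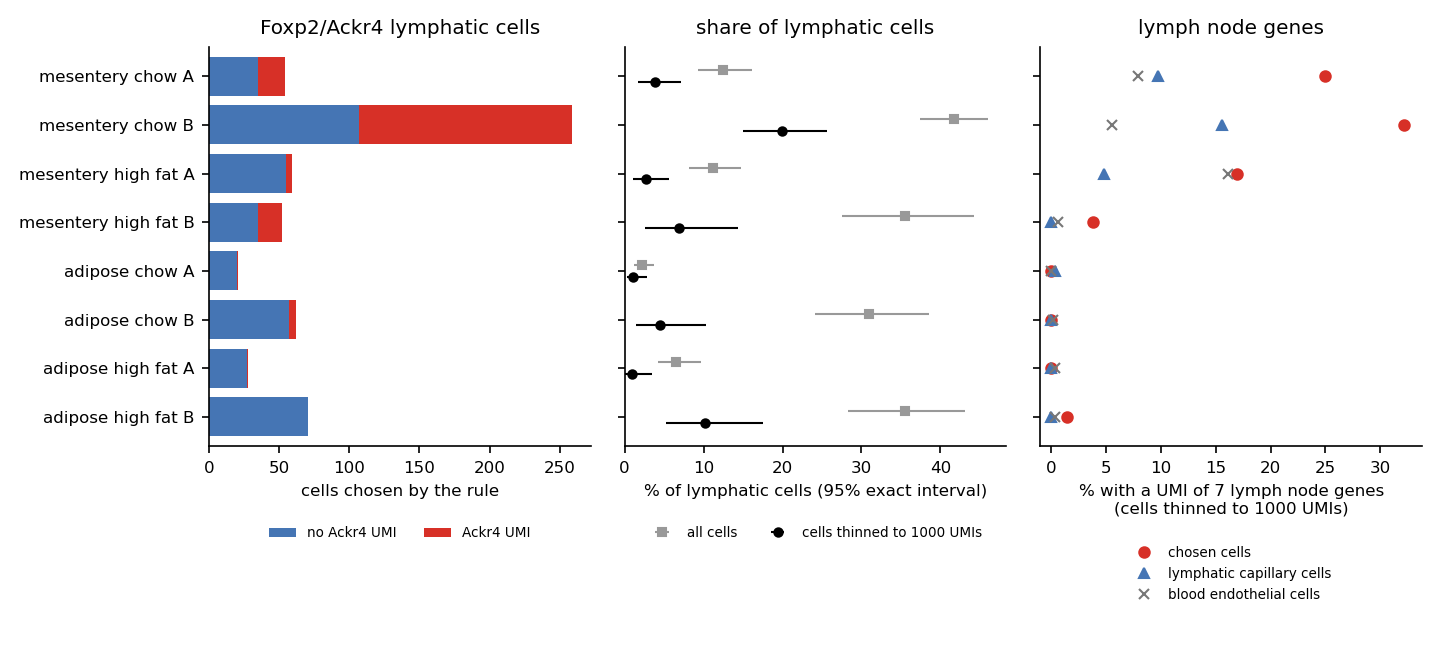
Left, number of Foxp2/Ackr4 lymphatic cells per library, with and without an Ackr4 UMI; middle, their share of lymphatic cells with 95% exact binomial intervals; right, share of 3 cell classes with a UMI of any of 7 lymph node genes after thinning. Chow mesentery B holds 259 of the 606 cells, and lymph node genes are nearly limited to mesentery.

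The share of Foxp2/Ackr4 cells among lymphatic cells was higher in the more deeply sequenced run B in every group. Lymphatic cells, counted as cells with at least 2 of Prox1, Mmrn1 and Flt4 and no Ptprc, numbered 2721, and 507 of them met the rule. The share was 2.17 to 12.5% in run A and 31.0 to 41.7% in run B. With every cell thinned to 1000 UMIs and shallower cells left out, it was 3.81 and 19.9% in chow mesentery, 2.77 and 6.90% in high fat mesentery, 1.12 and 4.5% in chow adipose tissue and 0.971 and 10.2% in high fat adipose tissue. The groups overlapped. By an exact two-sided permutation test over the 70 ways to relabel the 8 libraries, for which the smallest possible p is 0.0286, the mean logit of the share differed by 0.82 between mesentery and adipose tissue (p = 0.314, adjusted over 4 such comparisons 0.629) and by -0.17 between high fat and chow (p = 0.829, adjusted 0.886). By the same exact permutation test, among all passing cells the logit differed by 0.90 between tissues (p = 0.171, adjusted 0.629) and by 0.11 between diets (p = 0.886, adjusted 0.886).

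Against lymphatic capillary cells, 7 of 10 capillary genes were lower in the chosen cells in all 8 libraries, among them Piezo2, Pdpn, Itih5 and Stab1, which had no part in choosing either class. Spp1, Bmp4, Adm and Cldn11 were higher. The 1796 capillary cells had at least 2 of Prox1, Mmrn1 and Flt4, at least 2 of Lyve1, Reln and Ccl21a, and neither Foxp2 nor Ackr4, at a median of 2104 UMIs. Both classes were chosen from the cells compared, so the comparison has no test. Of 9932 genes with at least 50 counts, 175 (1.76%) were higher in the chosen cells in all 8 libraries and 237 (2.39%) were lower. With every cell thinned to 1000 UMIs the counts were 65 and 136. Spp1, which encodes the matrix protein osteopontin, had the largest median ratio of the named genes after Foxp2 and stood at 67.9 to 508 CPM against 0 to 57.4. Wnt4, Bmp4, Fibin, Sbspon, Ccdc3, Adm, Lsr, Gdf10, Tmem158 and Bcam followed, with median log2 ratios of 3.30 down to 2.24 over the 8 libraries. The chosen cells were deeper than the capillary cells, and with every cell thinned the ratio of Wnt4 went from 3.30 to 1.90, that of Lsr from 2.70 to 0.43 and that of Bcam from 2.24 to 1.62. Adm encodes adrenomedullin, a peptide that tightens lymphatic junctions, and stood at 91.8 to 304 CPM against 4.88 to 91.4. The named genes with the lowest ratios included Enkur (median log2 ratio -3.11), Cd2 (-2.96), Ptx3 (-2.74) and Itih5 (-2.61).

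By role, 9 of 14 lymphatic identity genes were lower in all 8 libraries, with a median log2 ratio of -0.85 against -0.01 over all genes. Flt4, Mmrn1, Lyve1, Reln and Ccl21a are among these 9, and each had a part in choosing at least 1 of the classes, whereas Pdpn, Nr2f2, Maf and Nrp2 had none. Of the 16 genes of valve endothelium, Cldn11 and Adm were higher in every library. Others were lower, the connexin gene Gja1 among them, so the list as a whole did not go 1 way. Cldn11, a tight junction gene of lymphatic valves, stood at 100 to 220 CPM against 22.8 to 55.6, without overlap. Among 12 genes of muscle coat recruitment and tone, Pdgfb, Nos3 and Bmp4 were higher and Reln was lower (list median 0.96). Nos3, the endothelial nitric oxide synthase, stood at 29.8 to 122 CPM against 8.79 to 37.5. Among 11 genes of blood endothelium, Plvap, Cd36 and Flt1 were higher (list median 1.08). Plvap, the gene of the diaphragms of vessel pores, stood at 433 to 1038 CPM against 173 to 666 in capillary cells and 176 to 1627 in blood endothelial cells. Cells with at least 2 of the valve markers Foxc2, Gata2, Nfatc1, Cldn11, Itga9, Gja4, Gja1, Neo1 and Cd24a after thinning made up 22.9 to 40.7% of the chosen cells and 11.9 to 36.4% of capillary cells. Within a library the share was higher in the chosen cells in each but high fat mesentery B (26.9 against 36.4%).

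Between mesentery and adipose tissue Il33, Tnc and Marco were among the genes higher in mesentery and Ccl21a and Abcg1 among those lower. The comparison sets cells that met the same rule in a fat depot beside those in the tissue that carries intestinal lymph, and the mix of Ackr4 and lymph node gene cells given above differed between the tissues. With edgeR's quasi-likelihood test on the counts summed per library and Benjamini-Hochberg adjustment, 43 of 6276 genes (0.685%) differed between the tissues averaged over diets, 34 higher (0.542%) and 9 lower (0.143%) in mesentery. With the run as a block, since the labels say that the experiment was repeated, 221 genes (3.52%) differed, 157 higher (2.5%) and 64 lower (1.02%), all 43 among them. On chow alone 22 genes (0.351%) differed without the block and 236 (3.76%) with it, 166 higher (2.64%) and 70 lower (1.12%). On high fat alone they numbered 1 (0.0159%) and 7 (0.112%), 6 of the 7 higher (0.0956%). Ackr4, a gene of the rule, is among the calls averaged over diets in both fits and among those on chow and on high fat with the block, Pkhd1l1 among those on chow and averaged with the block, and Clca3a1 among those on chow with the block.

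Genes of cytokines, growth factors and matrix were among those higher in mesentery. Il33, an alarmin cytokine of endothelium and other lining cells, stood at 598 and 599 CPM in chow mesentery, 103 and 92.5 in high fat mesentery, 29.8 and 34.6 in chow adipose tissue and 18.2 and 27.6 in high fat adipose tissue. Every mesenteric library lay above every adipose one, and the log2 difference was 3.14 ± 0.31 (SE, adjusted p = 0.0057 by edgeR). Tnc, the matrix protein tenascin C, stood at 270, 563, 55.1 and 52.8 CPM in mesentery and 0, 7.42, 9.10 and 17.6 in adipose tissue (log2 difference 3.94 ± 0.46, adjusted p = 0.0111 by edgeR). Csf1, the macrophage growth factor, was likewise higher (3.42 ± 0.49, adjusted p = 0.0258), as were Jam3, a junction gene (3.13 ± 0.42, adjusted p = 0.0194), and Cd55, which restrains complement (2.53 ± 0.38, adjusted p = 0.0258). Bmp2, a BMP ligand, stood at 297, 310, 239 and 22 CPM in mesentery and was at 0 in adipose tissue, at least 80.3-fold higher against a floor of 3 counts over the adipose libraries (adjusted p = 0.0452). Cyp1b1, Serpina3g, Ltb, Ltbp2, Car8, Gata6 and Enpp2 were also higher, with adjusted p between 0.0111 and 0.0392.

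The lymph node genes were part of this difference. Marco stood at 1687, 1696, 595 and 372 CPM in mesentery and at 0 in the 4 adipose libraries, at least 432-fold higher (adjusted p = 0.00133 by edgeR, 3779 UMIs). It was the only gene that also passed on high fat alone without the block (adjusted p = 0.029), but 2 cells and 1 cell carried its UMIs there. Msr1 (adjusted p = 0.0288) and Glycam1 (adjusted p = 0.00594) passed as well. Glycam1 had 1394 UMIs against 2, a ratio of 239 with a 95% counting interval of 66.0 to 1974. Its mesenteric UMIs sat in 5 and 43 cells on chow and in 6 and 1 on high fat, a spread that the interval does not cover. Bmp2 was at 770, 500, 767 and 65.3 CPM in the mesenteric cells with a lymph node gene and at 41.6, 7.17, 0 and 15.3 in those without.

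Fdps and Msmo1, enzymes of cholesterol synthesis, were higher in mesentery with the run as a block, and Abcg1, a cholesterol exporter, was lower with no block. Fdps stood at 40.5, 75.6, 44.1 and 41.8 CPM in mesentery and 0, 17.3, 0 and 7.53 in adipose tissue, without overlap (log2 difference 2.60 ± 0.51, adjusted p = 0.0038 by edgeR with the block, 0.11 without). The libraries at 0, chow adipose A and high fat adipose A, were the shallowest (33606 and 109832 UMIs), so a 0 there says little. Msmo1 differed by 1.90 ± 0.37 (adjusted p = 0.00388 with the block, 0.0991 without). With the block, Fdps lost its call without the run B library of chow mesentery or that of chow adipose tissue, and Msmo1 without the run B library of chow or of high fat adipose tissue (adjusted p up to 0.292 and 0.304). Abcg1 stood at 4.50, 21.0, 3.67 and 8.80 CPM in mesentery and 59.5, 99.0, 45.5 and 75.3 in adipose tissue (log2 difference -2.74 ± 0.48, adjusted p = 0.0392). Its call was lost without any 1 of the 8 libraries (log2 difference -3.59 to -2.41, adjusted p up to 0.629). Abca1, the other exporter tested, was lower only with the block (-0.86 ± 0.22, adjusted p = 0.0349). Apoe, which carries exported cholesterol, was higher with the block (1.10 ± 0.20, adjusted p = 0.00226), and its values by library follow with the diets.

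Of 12 antigen display genes tested, 6 were higher in mesentery when the run was a block, and 0 without it. H2-K1, a class I heavy chain, stood at 4323 and 3776 CPM in chow mesentery, 2064 and 1988 in high fat mesentery, 714 and 1024 in chow adipose tissue and 1084 and 2170 in high fat adipose tissue. High fat adipose B thus overlapped with high fat mesentery, and the log2 difference was 1.36 ± 0.20 (adjusted p = 0.000194 by edgeR with the block, 0.121 without). H2-D1, B2m, Tap1, Psmb8 and Psmb9, which encode another heavy chain, the light chain, a peptide transporter and proteasome subunits, were also higher with the block (log2 differences 0.95 to 1.41). None of the 12 was lower, and their median was 0.85. Leukocyte adhesion and chemokine genes Vcam1 (2.5 ± 0.44), Ccl2 (2.52 ± 0.68), Cxcl1 (3.43 ± 0.68) and Cxcl10 (6.32 ± 1.13) passed with the block too. Cxcl1 was lower in run B than in run A in all 4 groups, and Ccl2 in each but chow adipose tissue.

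Ccl21a, Reln and Pdpn were the capillary genes lower in mesentery. Ccl21a stood at 2767 and 2264 CPM in chow mesentery, 7847 and 10860 in high fat mesentery, 13990 and 21790 in chow adipose tissue and 12370 and 31400 in high fat adipose tissue. The tissues did not overlap (log2 difference -1.94 ± 0.35, adjusted p = 0.0398 by edgeR). Reln (-1.13 ± 0.21, adjusted p = 0.00297) and Pdpn (-1.04 ± 0.23, adjusted p = 0.0134) were lower with the block, so that 3 of the 10 capillary genes passed and none was higher. Fbln5, an elastic fibre gene (-1.77 ± 0.28), Ccn2 (-2.33 ± 0.41), Fgfr1 (-1.69 ± 0.29) and Plce1 (-1.80 ± 0.26) were lower without the block. Mgp, which prevents calcification, was lower with it (-2.67 ± 0.36, adjusted p = 9.84e-05), at 11 to 66.1 CPM in mesentery and 120 to 1369 in adipose tissue. Neo1, a guidance receptor active in lymphatic valves, and Ptx3, a pentraxin, were also lower (-2.54 ± 0.39 and -3.92 ± 0.53), and the next comparison gives their levels.

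**Figure D3:**
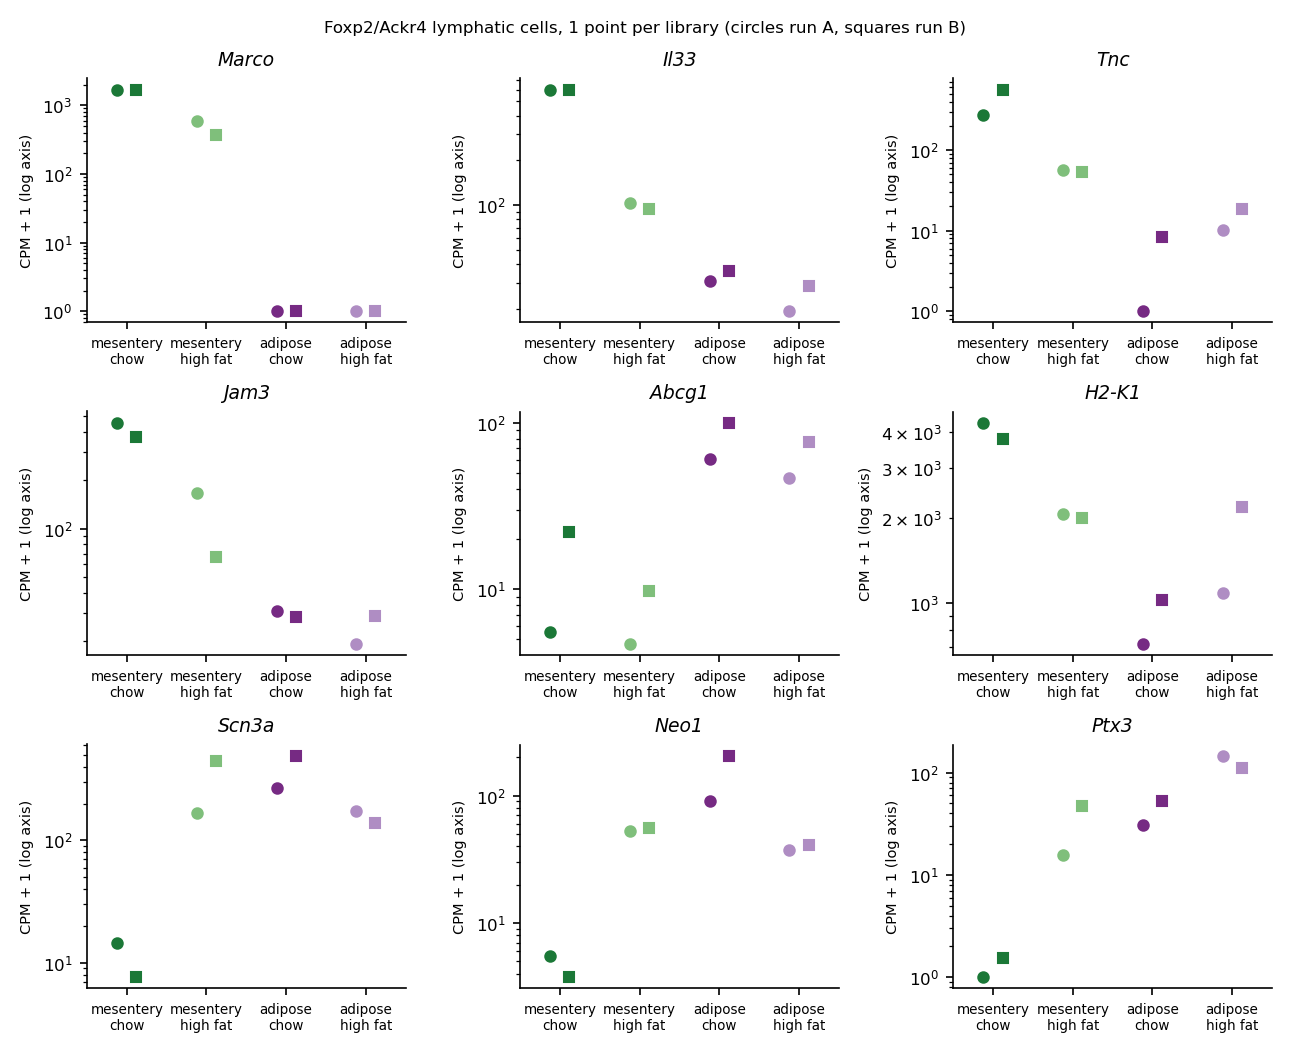
Level of 9 genes (CPM + 1, log axis) in Foxp2/Ackr4 lymphatic cells, 1 point per library. Marco, Il33, Tnc and Jam3 are higher in every mesenteric library than in every adipose one and Abcg1 is lower, whereas Scn3a, Neo1 and Ptx3 are lowest in chow mesentery.

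These calls rested on few libraries. Of the 26 genes named from the fit without the block, 1 (Marco) kept its call without chow adipose B (adjusted p 0.159 to 0.646 for the others) and 1 (Marco) without high fat adipose B (0.0562 to 0.275), while 7 did without chow mesentery B and 8 without chow adipose A, a library of 21 cells. Without the other libraries 12 to 18 of the 26 did. Of the 19 genes named from the fit with the block, only H2-K1 and Mgp kept their calls without chow adipose B, and 13 to 18 did without each other library. The shares of Ackr4 cells and of cells with a lymph node gene, given above, also differed between the tissues, and their part in these calls was not tested beyond leaving them out. Without Ackr4 cells 54 genes passed, 36 of the 43 among them. Without cells that had a lymph node gene none passed without the block (162 at an unadjusted p under 0.05) and 71 with it, 49 of the 221 among them, including H2-K1, B2m, H2-D1, Ccl2, Abca1 and Mgp.

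In mesentery, Scn3a, Neo1 and Ccl21a were higher on high fat and Apoe, Il33 and Tnc lower when the run entered as a block. That fit called 93 of 6276 genes (1.48%), 29 higher (0.462%) and 64 lower (1.02%), with Clca3a1 of the rule among them. The fit without the block called 0 genes (0%), with 229 at an unadjusted p under 0.05, and DESeq2 called 5. All calls of this comparison below are from the blocked fit.

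Scn3a, a voltage-gated sodium channel gene, stood at 13.5 and 6.62 CPM in chow mesentery and at 165 and 442 in high fat mesentery. The log2 change was 5.36 ± 0.51 (adjusted p = 9.73e-06 by edgeR), and the adipose libraries held 268, 492, 173 and 138 CPM. Neo1 showed the same order, at 4.50 and 2.76 CPM on chow and 51.4 and 55.0 on high fat (4.12 ± 0.58, adjusted p = 0.000592), from 1 and 2 cells against 5 and 5. Ptx3 had 1 UMI on chow and 25 on high fat, a ratio of 70.0 with a counting interval of 11.5 to 2874 (adjusted p = 0.0015). Ccl21a rose by 1.81 ± 0.27 (adjusted p = 0.000716) and Piezo2, a mechanosensitive channel of lymphatic capillaries, by 1.72 ± 0.37 (adjusted p = 0.0184). These were 2 of the 10 capillary genes, with none lower and a median of 0.54 against -0.01 over all genes. Other genes that rose were Gap43 (3.95 ± 0.52), Sox4 (2.56 ± 0.35), Tc2n (2.67 ± 0.42), S100a4 (2.39 ± 0.48), Plau (3.03 ± 0.70), Fbln2 (2.35 ± 0.42), Adamtsl1 (2.28 ± 0.43) and Thy1 (1.12 ± 0.28). The collagen IV genes Col4a1 (1.73 ± 0.36) and Col4a2 (2.20 ± 0.37) of the basement membrane rose, 2 of 15 genes of that list. Of 9 blood endothelial genes, Aqp1 (2.38 ± 0.42), Fbln5 (1.88 ± 0.33) and Gpihbp1 (1.40 ± 0.35), which anchors lipoprotein lipase, rose.

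Apoe stood at 3140 and 2612 CPM in chow mesentery and at 576 and 737 in high fat mesentery, beside 893 and 453 in chow and 637 and 863 in high fat adipose tissue. It fell by 2.14 on the log2 scale in mesentery (SE 0.28, adjusted p = 0.00032 by edgeR), with 2 libraries per diet. The fall was not larger than that of lymphatic capillary cells, compared further below. Il33 (-2.65 ± 0.30, adjusted p = 9.44e-05), Tnc (-2.97 ± 0.36, adjusted p = 0.000161), Csf1 (-2.28 ± 0.42) and Jam3 (-1.97 ± 0.34) fell as well. Cyp26b1, an enzyme that breaks down retinoic acid, fell from 103 and 141 CPM to 0 and 19.8 (-3.46 ± 0.56, adjusted p = 0.00217). Col12a1 (-3.77 ± 0.60), Ctss (-3.53 ± 0.62) and Serpina3n (-2.88 ± 0.50) fell. Clec1b had 207 UMIs on chow and 1 on high fat, a ratio of 73.9 with an interval of 13.1 to 2934, and Cyp1a1 had 77 and 0, at least 9.17-fold lower on high fat. Of 12 antigen display genes, B2m (-1.13 ± 0.24) and Tap2 (-1.42 ± 0.34) fell and none rose (median -0.97). Cfd, an adipocyte gene, had 99 UMIs on chow and 0 on high fat, at least 11.8-fold lower, all from chow mesentery B, where adipocyte genes summed to 109 CPM. Of the lymph node genes, Marco (-1.87 ± 0.28), Msr1 (-2.91 ± 0.47) and Clec4g (-3.10 ± 0.70) fell, and they sat in few cells on high fat. The change of Marco turned to 0.59 with at least 3 of the 6 rule genes asked, and without high fat mesentery B its adjusted p was 0.0688. Msr1 and Clec4g lost their calls without chow mesentery B or high fat mesentery B (adjusted p up to 0.766 and 0.942), and Clec4g also without either chow adipose library. Zfp36 and Ier3, immediate early genes that differed between the runs, and Fkbp5, a glucocorticoid target, also fell (-2.32 ± 0.40, -1.60 ± 0.31 and -2.03 ± 0.41).

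**Figure D4:**
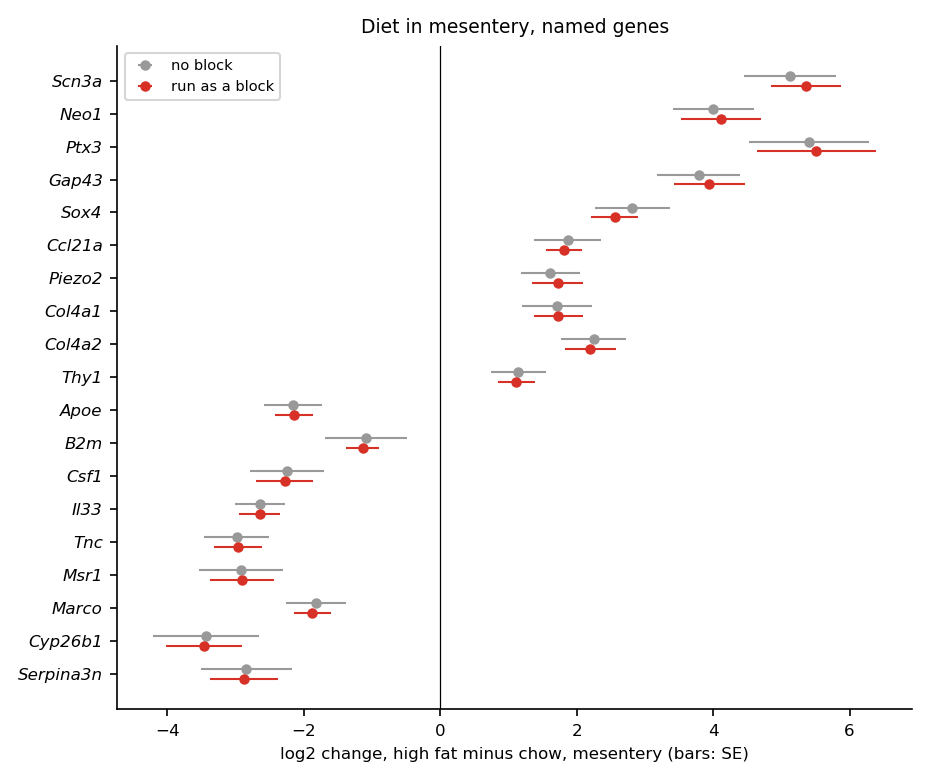
Log2 change with high fat diet in mesentery for 19 named genes (horizontal axis, bars are standard errors), without a block and with 1 for the run. Each gene lies on the same side of 0 in both fits, with Scn3a at 5.36 ± 0.51 and Il33 at -2.65 ± 0.30 once the run is a block.

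The makeup of the chosen cells also differed between the diets in these libraries. Ackr4 cells, which mostly lack Ccl21a, went from 35.2 and 58.7% on chow to 6.8 and 32.7% on high fat, and cells with a lymph node gene from 25 and 32.2% to 16.9 and 3.8% after thinning. Without Ackr4 cells 165 genes passed, 86 of the 93 among them. Without lymph node gene cells 45 passed, 30 of the 93 among them. Scn3a, Sox4, Ccl21a, Apoe, Il33, Tnc, Cyp26b1 and Serpina3n kept their calls without each single library. Of the 37 named genes 15 kept theirs without high fat mesentery B (36 genes passed in all) and 17 without chow mesentery B (65 genes in all), while 236 genes passed without chow mesentery A, 169 without high fat mesentery A, 199 without high fat adipose A and 159 without high fat adipose B.

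In adipose tissue 0 of 6276 genes (0%) differed between diets without the block, with 71 at an unadjusted p under 0.05 and 0 by DESeq2. With the block 2 (0.0319%) did, Cfd and Car3, both adipocyte genes. Cfd had 73 UMIs on chow and 0 on high fat, and Car3 175 and 2. All 73 came from chow adipose B, where 67.1% sat in 1 cell, and adipocyte genes summed to 693 CPM in that library against at most 18.2 in the other 3. Their part in the result was not tested. Without chow adipose B both calls were lost (adjusted p 0.995 and above), as they were without high fat adipose B, and the log2 change of Car3 turned to 1.96 without chow adipose B. Averaged over the tissues 0 genes (0%) passed without the block, with 124 at an unadjusted p under 0.05 and 0 by DESeq2, and 10 (0.159%) with it, 6 higher (0.0956%) and 4 lower (0.0637%). Averaged over the tissues Ptx3, Gap43, Scn3a, Sox4, Angptl4 and Ccl21a rose and Zfp36, Timp4, Cfd and Car3 fell. In adipose tissue alone, however, Scn3a was lower on high fat than on chow in both runs (-1.30 ± 0.42, adjusted p = 1). Angptl4, an inhibitor of lipoprotein lipase, stood at 121 and 82.2 CPM in chow mesentery, 213 and 172 in high fat mesentery, 29.8 and 44.5 in chow adipose tissue and 219 and 146 in high fat adipose tissue (1.44 ± 0.26, adjusted p = 0.014 by edgeR with the block). The diets did not overlap within either tissue, with 2 libraries per diet in each, and the adjusted p of Angptl4 without the block was 0.92 (edgeR). None of the 10 kept its call without chow adipose B (lowest adjusted p 0.196), and 4 did without chow adipose A.

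The diet change differed between the tissues for 8 genes (0.127%) with the block and for 0 (0%) without it, where 143 were at an unadjusted p under 0.05 and DESeq2 called 2. The 8 were 5 positive (0.0797%) and 3 negative (0.0478%) differences. The difference is the log2 change in mesentery minus that in adipose tissue. It was positive for Scn3a (6.66 ± 0.66, adjusted p = 1.99e-05 by edgeR), Neo1 (6.21 ± 0.74), S100a4 (4.20 ± 0.68), Tc2n (3.40 ± 0.57) and Stmn2 (2.54 ± 0.49). It was negative for Apoe (-2.60 ± 0.40), H2-K1 (-1.99 ± 0.38) and B2m (-1.87 ± 0.36). Neo1 was at 89.3 and 205 CPM in chow and 36.4 and 40.1 in high fat adipose tissue, so the order of the diets was opposite in the 2 tissues. None of the 8 passed without chow adipose B (adjusted p 0.713 to 0.741), and 5 passed without chow adipose A and 5 without high fat adipose B.

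The tissue and diet differences were then compared with those of lymphatic capillary cells from the same libraries. The difference between the classes in tissue or diet change was tested with edgeR, with each library as a block, over 7818 genes. Between tissues it passed for 88 genes (1.13%), 42 higher (0.537%) and 46 lower (0.588%). H2-K1 (0.84 ± 0.18, adjusted p = 0.00202), B2m (0.81 ± 0.18), H2-D1 (0.70 ± 0.17), Psmb8 (1.15 ± 0.26) and Psmb9 (1.33 ± 0.33) were higher in mesentery by more in the Foxp2/Ackr4 cells than in capillary cells, 5 of 13 antigen display genes. In capillary cells H2-K1 stood at 1462, 1494, 882 and 1079 CPM in mesentery and 666, 673, 698 and 1464 in adipose tissue, which overlap. Plvap also differed (1.11 ± 0.20, adjusted p = 8.79e-05): it stood at 433 to 1038 CPM in the Foxp2/Ackr4 cells of both tissues, and in capillary cells at 173 to 382 in mesentery and 311 to 666 in adipose tissue. Ccl21a (-1.21 ± 0.14), Reln (-1.06 ± 0.19), Piezo2 (-1.20 ± 0.29) and Pdpn (-0.86 ± 0.24) were lower in mesentery by more in the Foxp2/Ackr4 cells, and Ccl21a and Reln also chose the capillary cells. Vwf (1.97 ± 0.44) and Bmp4 (2.26 ± 0.49) were higher, and Abcg1 (-1.81 ± 0.46), Ptx3 (-2.16 ± 0.54) and Scn3a (-2.08 ± 0.29) lower. With 1 library left out at a time Vwf ran from 0.14 (without high fat adipose A) to 5.97 (without chow adipose B) and Bmp4 from 0.95 (without chow adipose B) to 3.20 (without high fat mesentery A). Vwf also lost its call without either of these adipose libraries, chow adipose A, chow mesentery B or high fat mesentery B, and Bmp4 without these adipose libraries, chow mesentery B or high fat mesentery B. Ptx3 ran from -3.82 to -1.10 and lost its call without each mesenteric library and without chow adipose B. Of the 15 genes named here Ccl21a and Plvap kept their calls without each library, and without chow mesentery B 5 did. Il33 (0.56 ± 0.50, adjusted p = 0.87) did not pass.

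The diet change differed between the classes for 28 genes (0.358%) averaged over tissues, 10 of them lower (0.128%) in the Foxp2/Ackr4 cells. It differed for 63 (0.806%) in mesentery, 46 of them higher (0.588%) and Klrb1f of the rule among the 63, and for 12 (0.153%) in adipose tissue, 3 of them higher (0.0384%). Fn1, the matrix protein fibronectin, stood in the Foxp2/Ackr4 cells at 202 and 281 CPM in chow and 470 and 482 in high fat mesentery, and at 327 and 369 in chow and 501 and 211 in high fat adipose tissue. In capillary cells it stood at 71.5 and 39.7, 515 and 610, 163 and 131, and 375 and 517. The diets, with 2 libraries each per tissue, thus did not overlap in capillary cells of either tissue. The change was smaller in the Foxp2/Ackr4 cells by 2.09 on the log2 scale (SE 0.25, adjusted p = 3.83e-11 by edgeR), with or without each library. In mesentery alone Fn1 (-2.46 ± 0.33), Scn3a (2.55 ± 0.44), Ccl21a (1.06 ± 0.20), Gpihbp1 (1.13 ± 0.28) and Marco (3.81 ± 0.42) differed. Ccl21a also had a part in choosing the capillary cells, so its value is a description. In capillary cells Marco stood at 257 and 1084 CPM on chow and 18.5 and 0 on high fat. Without chow mesentery B only Marco of these 5 kept its call. Of the 6 lymph node genes tested in mesentery, 4 were higher by this test and 0 lower. They were Marco, Glycam1 (5.21 ± 0.35), Coch (9.82 ± 1.10) and Madcam1 (6.13 ± 1.11). Higher refers to the diet change: Marco fell on high fat in both classes, by less in the Foxp2/Ackr4 cells. Few of these cells carried the genes on high fat (run A and run B). Marco was in 2 and 1, Glycam1 in 6 and 1, Coch in 6 and 1 and Madcam1 in 7 and 1. Among other list genes called there, Bmp2 (3.71 ± 0.51), Cxcl10 (3.11 ± 0.47) and Fabp4 (1.85 ± 0.32) were higher, and Angpt2 (-1.64 ± 0.37) and Col3a1 (-5.02 ± 1.04) lower. Vcam1 (3.36 ± 0.56), Angpt2 (-1.19 ± 0.27) and Apoe (1.07 ± 0.25, adjusted p = 0.011 by edgeR) differed averaged over tissues. In mesentery the class difference was 0.88 ± 0.34 for Apoe (adjusted p = 0.412 by edgeR) and 1.87 ± 0.46 for Csf1 (adjusted p = 0.0131). The falls of Apoe and Csf1 on high fat were thus not larger in the Foxp2/Ackr4 cells than in capillary cells.

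For 4 antigen display genes, all of MHC class II, the diet change was lower in the Foxp2/Ackr4 cells than in capillary cells. Cd74 stood there at 270 and 272 CPM in chow and 66.1 and 246 in high fat mesentery, and at 29.8 and 166 in chow and 0 and 349 in high fat adipose tissue. In capillary cells it stood at 56.9 and 66.2, 132 and 137, 17.6 and 7.03, and 37.9 and 417, higher on high fat in each tissue without overlap (2 libraries per diet). The difference between classes was -2.79 ± 0.34 for Cd74 (adjusted p = 6.77e-11 by edgeR), -3.09 ± 0.51 for H2-Ab1, -3.03 ± 0.52 for H2-Eb1 and -2.39 ± 0.52 for H2-Aa, of 13 antigen display genes tested. Averaged over tissues, none of the 4 passed without chow adipose B, and H2-Ab1, H2-Eb1 and H2-Aa turned to 0.81, 0.98 and 1.97. In adipose tissue alone H2-Ab1, H2-Eb1 and Cxcl9, an interferon-induced chemokine, turned to 4.27, 4.3 and 4.64 without it. In mesentery alone Cd74 (-2.01 ± 0.36, adjusted p = 4.93e-05), H2-Ab1 (-2.66 ± 0.59, adjusted p = 0.00228) and H2-Eb1 (-2.34 ± 0.60, adjusted p = 0.0203) passed, with or without chow adipose B, and H2-Aa did not (-2.09 ± 0.68, adjusted p = 0.158). All 3 lost their calls without high fat mesentery A, H2-Ab1 and H2-Eb1 also without chow mesentery B, and H2-Eb1 without chow mesentery A (adjusted p up to 0.517 for Cd74, 0.922 for H2-Ab1 and 0.55 for H2-Eb1). DESeq2 called 5, 8, 0 and 19 genes for the class differences in diet averaged, in mesentery, in adipose tissue and between tissues.

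**Figure D5:**
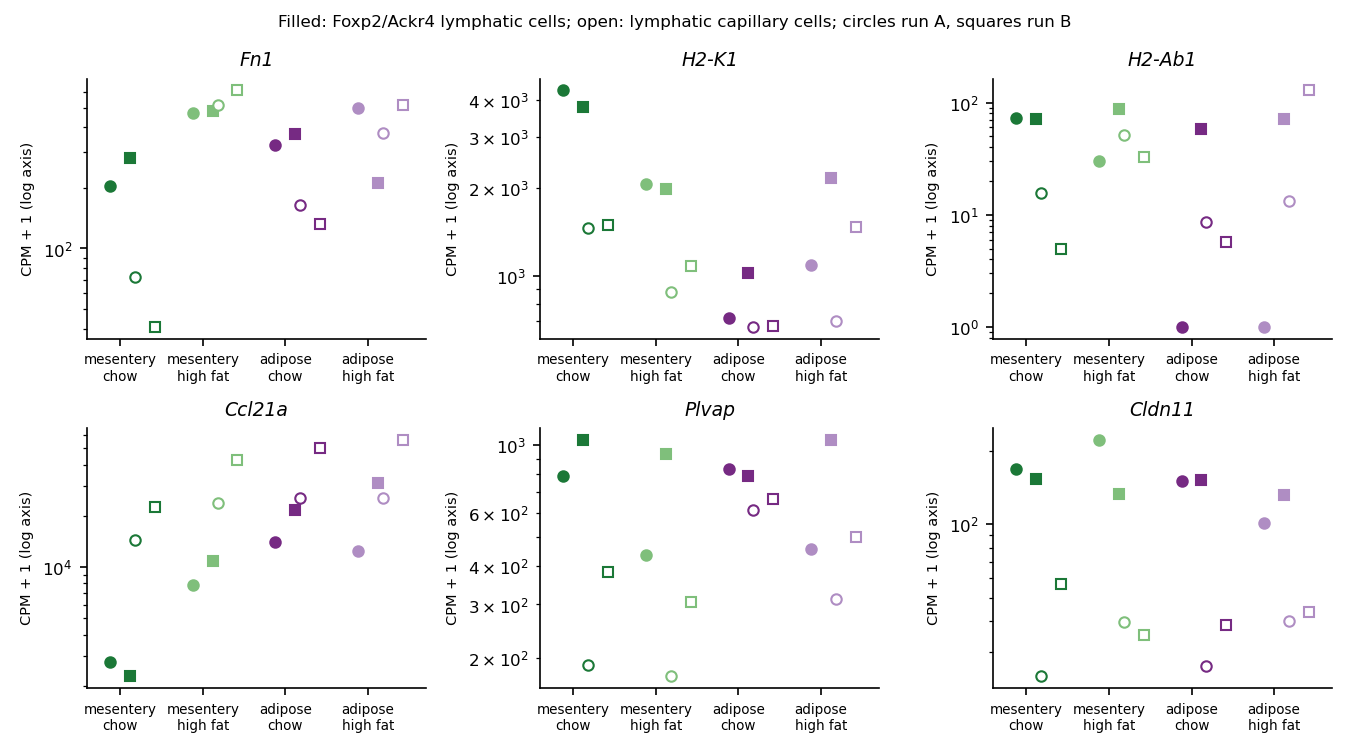
Level of 6 genes (CPM + 1, log axis) in Foxp2/Ackr4 lymphatic cells (filled) and lymphatic capillary cells (open), 1 point per library and class. Fn1 is lower on chow than on high fat in the open points of both tissues, H2-K1 is highest in the filled points of chow mesentery, and Cldn11 is higher in the filled points of every library.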

How the data were processed

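Each of the 8 libraries came as a matrix of UMI counts per gene and cell barcode, deposited by the authors as raw counts. Per the file headers, run A was written by matrix software version 3.0.2 and run B by version 5.0.0. The submitters' processing notes name mm10 and Seurat 4.3.0, while neither labels nor headers give the cell calling settings or the sort gate. The 31053 genes of run A and 32285 of run B shared 30406 identifiers, which held at least 99.58% of each library's UMIs, and only these were used. Of 27944 barcodes 23996 passed the limits of 500 UMIs, 300 genes and 10% mitochondrial UMIs. The doublet caller of scanpy 1.11.5 marked 48 passing cells (0.2%) by its own threshold, which was taken as a failed call; a rate of 0.8% per 1000 barcodes marked 944 (3.93%), which were left out only as an alternative.

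Counts of the chosen cells were summed per library and fitted with edgeR 4.0.16 (R 4.3.3, limma 3.58.1), TMM scaling, edgeR's filter on low counts, 4 groups in 1 fit and a Benjamini-Hochberg adjusted p under 0.05. The run was left out of the first fit and entered as a block in the other. The labels pair the runs, and over 6 pairs of libraries the deviations of the same run correlated at 0.229 to 0.509. Class differences were fitted on summed counts of both classes with a term per library. Levels are CPM of summed UMIs, ratios to capillary cells used a pseudocount of 1 CPM, and folds against a group at 0 used a floor of 3 counts over that group. Where levels are said not to overlap, the share of all genes without overlap is not given. Exact intervals at 95% cover counting error only. Shares were tested by exact permutation with cells thinned to 1000 UMIs (Python 3.11.15, numpy 2.4.6, scipy 1.17.1, pandas 2.3.3, matplotlib 3.10.9). The fits were tested on simulated data, in which a larger share of the calls was false than the threshold allows, most of all for the class differences. The simulated runs differed in depth alone, and their spread was taken from the fit without the block. The real runs differed in more than depth, so the simulation cannot give the rates of the blocked fit on the real data. In the simulated data, for diet in mesentery, 11.6% of calls were false without the block, 13.8% with it and 20.5% for the class difference. These fits recovered 33.3, 32.3 and 6% of 4-fold changes and 88.3, 87.2 and 64% of 16-fold changes, so a gene that did not pass may still differ.

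Genes were named from each fit if they passed, went the same way in both runs and had at least 10 counts in the higher group, up to 12 per direction, from the blocked fit too where the other called fewer than 10. Ratios to capillary cells needed 50 counts and the same direction in all libraries. Called members of the gene lists were also named. The cells, lists and tests were chosen with earlier results of these data known. DESeq2 1.42.0, other filters and cell choices, and leaving out each library were run as alternatives. No column of per-sample values was left unused (0 columns). Some results are not reported here.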

Additional observations from a re-analysis of the deposited data

Results flagged for a closer look

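For 8 genes the diet change differed between mesentery and adipose tissue by the test of the difference itself, in edgeR with the run as a block. The log2 change in mesentery minus that in adipose tissue was 6.66 for Scn3a, 6.21 for Neo1, 4.20 for S100a4, 3.40 for Tc2n, 2.54 for Stmn2, -1.87 for B2m, -1.99 for H2-K1 and -2.60 for Apoe. Without the block none of the 8 passed, and none passed without chow adipose B. After cells with a lymph node gene were left out 6 of the 8 passed, and after Ackr4 cells were left out all 8 did.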

How the results depend on the processing

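Counts of called genes moved with most settings, and the cause was not tested unless the setting itself removes cells, genes or libraries. With the replicate block 93 genes passed for the diet in mesentery, 2 for that in adipose tissue, 10 for diet averaged, 236 for tissue on chow, 7 for tissue on high fat, 221 for tissue averaged and 8 for the difference of the diet changes. Without the block these counts were 0, 0, 0, 22, 1, 43 and 0.

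DESeq2 without the block called 5 genes for diet in mesentery, 52 for tissue on chow, 2 for tissue on high fat and 2 for the difference of the diet changes, and 5, 8, 0 and 19 for the class differences in diet averaged, in mesentery, in adipose tissue and in tissue. With the replicate block it called 49 for mesentery under diet, 0 for adipose tissue under diet, 138 for tissue on chow, 2 on high fat and 131 averaged. With no filter on low counts edgeR called 73, 13, 20, 191, 43, 184 and 14 genes in the 7 comparisons, in the order first given, and 204, 20, 41, 380, 70, 334 and 65 with the replicate block. The class difference in tissue then gave 43.

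With at least 3 of the 6 rule genes asked, 1 gene passed for tissue on chow and 2 averaged. With the replicate block 8 then passed for diet in adipose tissue, 17 for diet averaged, 117, 19 and 86 for tissue on chow, on high fat and averaged, and 23 for the difference of the diet changes, and Marco turned to 0.59 for diet in mesentery. Leaving out cells of high doublet score gave 0 for diet in adipose tissue, 2 for tissue on high fat and 5 for the difference, with the block. Cells with at least 1000 UMIs gave 2 for tissue on high fat.

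The next 3 settings were added after seeing the data. Without cells that had a lymph node gene, 0 genes passed for tissue on chow, on high fat and averaged. With the replicate block 45 then passed for diet in mesentery, 16 for diet averaged, 65 for tissue on chow, 71 averaged and 15 for the difference. Without Ackr4 cells 63 passed for tissue under chow and 2 under high fat, and with the replicate block 165 for the diet in mesentery, 1 in adipose tissue, 16 for diet averaged, 14 for tissue on high fat and 47 for the difference. With each cell thinned to 1000 UMIs 1, 0 and 3 passed for tissue on chow, on high fat and averaged. With the replicate block this gave 20, 0 and 2 for diet in mesentery, in adipose tissue and averaged, 42 and 39 for tissue on chow and averaged, and 2 for the difference. The fit with no filter and the block was also added then.

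Leaving out 1 library at a time gave 0 to 5, 0 to 0, 0 to 0, 0 to 59, 0 to 6, 1 to 47 and 0 to 1 genes in the 7 comparisons, and 36 to 236, 0 to 18, 0 to 66, 1 to 439, 4 to 73, 17 to 363 and 0 to 98 with the replicate block. The class differences gave 11 to 24 for diet averaged, 25 to 64 in mesentery, 0 to 12 in adipose tissue and 20 to 51 for tissue. A group left with 1 library was assumed to vary like the others. Without high fat adipose B the class differences of H2-Ab1, H2-Eb1 and H2-Aa were -5.57, -5.85 and -5.6 for diet averaged and those of H2-Ab1 and H2-Eb1 -8.44 and -9.33 in adipose tissue, and Cxcl9 was at -6.66 there without high fat adipose A. Without chow adipose B, Car3 turned to 1.96 for diet in adipose tissue (-7.18 without high fat adipose A), and the class differences of H2-Ab1, H2-Eb1 and H2-Aa turned to 0.81, 0.98 and 1.97 for diet averaged and those of H2-Ab1, H2-Eb1 and Cxcl9 to 4.27, 4.3 and 4.64 in adipose tissue.

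The share among lymphatic cells differed between diets by a logit of 0.24 with no thinning and by -0.64 to 0.36 with a library left out, 0.25 among them. The share among passing cells differed by -0.18 with 3 of 6 genes and by -0.43 to 0.55 with a library left out, -0.07 among them. Between tissues these ranges were 0.40 to 1.26 and 0.48 to 1.18. Ratios to capillary cells gave 65 genes higher and 136 lower after thinning. Of the single gene values under all settings, 1552 kept their direction and side of the threshold, 732 kept the direction and lost the call, and 8 turned, all of them given above. Depth limits chow adipose A and high fat adipose A most, with 33606 and 109832 UMIs in the chosen cells.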
